A study of Mus musculus with 2 samples.

Results

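The cells described here carried transcripts of Tshz1, Pbx3 and a GAD gene, the pattern used to mark a class of young GABAergic neurons, in 2 single-cell libraries from mouse forebrain. The cells were chosen by their own UMI counts: a barcode was taken when it had at least 500 detected genes and at most 10% mitochondrial UMIs, at least 1 UMI (unique molecular identifier, 1 captured transcript) of Tshz1, of Pbx3 and of Gad1 or Gad2, and 0 UMIs of Adarb2, Lhx6, Mki67, Top2a and Pdgfra. These genes mark caudal and medial ganglionic eminence interneurons, dividing cells and oligodendrocyte precursor cells (OPCs), in that order. Of 22193 barcodes that passed quality, 162 met the rule: 72 of 11228 in library 1 and 90 of 10965 in library 2. Their share was 0.641% (exact 95% binomial interval 0.502 to 0.807) and 0.821% (0.661 to 1.01), or 0.731% ± 0.127 (SD, n = 2). Intervals cover counting error only, since cells of 1 library share their source. Both libraries belong to 1 group of wild-type mice: EdU was given at embryonic day 12 (E12), the pallial region was taken and pooled at postnatal day 3 (P3), and cells negative for propidium iodide within the brightest 10% for EdU were sorted and run on the 10x Chromium 3' v3.1 chemistry. Shares are therefore shares of sorted cells, and the design has no treatment and no control group, so comparisons were made between classes of cells inside the same libraries. The labels do not say whether the libraries come from separate animals, so a p-value here reflects the spread of these samples alone, and that spread may be technical.

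As background, GABAergic neurons of the olfactory bulb and of the intercalated cell masses of the amygdala arise in the dorsal part of the lateral ganglionic eminence, a proliferative zone of the ventral forebrain, where Dlx genes, Gsx2, Pax6, Sp8 and Meis2 are active. Tshz1 encodes a zinc-finger transcription factor of the teashirt family that is needed for olfactory bulb interneurons to leave the migratory stream, and for the intercalated cells to form, which also carry Foxp2. Pbx3 encodes a TALE-class homeodomain factor, a partner of Meis and Hox proteins. Gad1 and Gad2 encode the enzymes that make GABA from glutamate. Sp8, a zinc-finger factor, marks another branch of olfactory bulb neuroblasts, which served as the comparator.

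The comparator, called Sp8 neuroblasts below, had at least 1 UMI of Sp8 and of a GAD gene and none of Adarb2, Tshz1 and Pbx3, and held 240 and 258 cells in libraries 1 and 2. Library 1 had 97091962 UMIs in 13858 barcodes and library 2 had 108903409 UMIs in 14513. The libraries shared 62 barcode sequences, of which 40 were among kept cells and 0 among the Tshz1/Pbx3/Gad cells. The median Tshz1/Pbx3/Gad cell had 4525 UMIs in library 1 and 5882.5 UMIs in library 2, less than the 7426 and 7458 UMIs of the median Sp8 neuroblast. Summed over cells, the class held 408362 and 594417 UMIs, on which every level below rests. Levels are in CPM, the common scale for UMI counts on which all genes of a class add up to the same total, so that a level is a gene's share of all UMIs of its class in a library. Pairs of values give library 1 first.

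In library 1, 3351 cells had a Tshz1 UMI, 965 of these also had Pbx3, and 423 of those also had a GAD transcript. Removing cells with Adarb2 left 224, removing those with Lhx6 left 221, removing those with Mki67 or Top2a left 108, and removing those with Pdgfra left 72. The same steps in library 2 ran from 3930 to 1190, 500, 256, 250, 131 and 90 cells. The gate thus removed more Tshz1/Pbx3/Gad cells than it kept, mostly through Adarb2 and the markers of division. Just outside it, cells that failed on Adarb2 alone numbered 109 and 127, those that failed on division alone 52 and 47, and those that failed on Pdgfra alone 36 and 41. A further 96 and 157 cells met every other criterion and had no GAD transcript. Just inside it, 30 of 72 and 39 of 90 cells had a single Tshz1 UMI, 32 and 45 a single Pbx3 UMI, and 16 and 21 a single UMI of each. The highest count in 1 cell was 6 and 8 for Tshz1 and 9 and 7 for Pbx3.

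By construction the class was high in the genes that chose it, and these values are given as a description with no test. Tshz1 stood at 397 and 345 CPM, Pbx3 at 463 and 319.6 CPM, Gad1 at 108 and 89.2 CPM and Gad2 at 426 and 360.0 CPM. In Pdgfra-positive cells with no GAD transcript, an OPC gate of 4342 and 4361 cells, Tshz1 stood at 48.9 and 56.3 CPM and Pbx3 at 22.4 and 22.8 CPM, so single UMIs of these genes were not confined to GABAergic cells. All other genes below were measured in the same cells whose Tshz1, Pbx3 and Sp8 counts set the classes.

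The name GABAergic neuroblasts held for a part of the class. Dlx genes encode homeodomain factors that mark forebrain GABAergic neurons and their precursors. At least 1 UMI of Dlx1, Dlx2, Dlx5 or Dlx6 was found in 58 of 72 cells (80.6%, interval 69.5 to 88.9) in library 1 and in 55 of 90 cells (61.1%, 50.3 to 71.2) in library 2. The share was 96.2% and 94.6% in Sp8 neuroblasts and 90.7% and 85.6% in the Adarb2-positive, GAD-positive cells called the CGE gate, whose median depth was 4430.5 and 5182 UMIs. In the OPC gate, which should lack these genes, it was 12.9% and 13.4% at median depths of 8515 and 9250 UMIs. After each cell was thinned to 2000 UMIs, Dlx1 alone was found in 55.7% and 43.0% of the Tshz1/Pbx3/Gad cells, against 72.2% and 54.4% unthinned, and in 71.4% and 68.3% of thinned Sp8 neuroblasts, with 2.27% and 2.53% in the OPC gate. Shallower cells left out of the thinned shares numbered 11 and 11 of the Tshz1/Pbx3/Gad cells and 16 and 12 of the Sp8 neuroblasts.

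Part of the cells without a Dlx UMI, 14 in library 1 and 35 in library 2, carried transcripts of other cell types. They were deeper, with medians of 7517 and 8652 UMIs against 4455.5 and 5229 UMIs with Dlx, and shares with any UMI rise with depth. Aqp4, an astroglial gene, was found in 6 of the 14 and 6 of the 35, against 12 of 58 and 10 of 55 with Dlx, so with little contrast in library 2. At least 1 UMI of Neurod2, Neurod6, Eomes, Tbr1, Slc17a7 or Slc17a6, which mark glutamatergic neurons and their precursors, was found in 5 of these 14 and 22 of these 35 cells, against 7 of the 58 and 8 of the 55 cells with Dlx. Summed over 10 glutamatergic markers, of which 9 and 10 were detected, the level was 282 and 634 CPM in the whole class, 126 and 267 CPM in its Dlx-positive cells and 81.4 and 85.5 CPM in Sp8 neuroblasts. Over 10 astroglial markers, of which 9 were detected in each library, it was 6479.6 and 2485 CPM in the class, 4752 and 1734 CPM in its Dlx-positive cells and 1489 and 1292 CPM in Sp8 neuroblasts. Glutamatergic transcripts were thus higher in library 2 and astroglial transcripts in library 1, within the class. Among Sp8 neuroblasts with the same exclusions and a Dlx UMI the glutamatergic level was 125 and 80.4 CPM and the astroglial level 1178 and 899.9 CPM. Against these, the Dlx-positive cells of the class were higher in astroglial transcripts in both libraries and in glutamatergic transcripts in library 2 alone. Doublet calls by Scrublet numbered 7 in library 1, all in Dlx-positive cells, and 0 in library 2. The 8 OPC markers other than Pdgfra summed to 1095 and 974 CPM against 769 and 802 CPM in Sp8 neuroblasts. Microglial markers summed to 9.80 and 0 CPM and vascular and blood markers to 12.2 and 5.05 CPM, so both lists were at or near 0.

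Clustering of all 4935 cells with a GAD transcript, with the 10 gate genes kept out of the clustering genes, placed the class in 11 of the 20 clusters. The clusters are described by their leading genes, they are not named, and no gene is tested between them. Clusters 1, 3, 11 and 14 together held 104 of the 162 cells (64.2%), 95 of them with a Dlx UMI. Cluster 1 took 26 and 23 cells and was led by Prokr2, Adarb2 and Pbx3; Prokr2 encodes the receptor of a guidance peptide for olfactory bulb neuroblasts. Its cells were shallow, with a median of 3047 UMIs in library 1 and 3331 UMIs in library 2 among the Tshz1/Pbx3/Gad cells. Cluster 11 took 12 and 14 cells, all with a Dlx UMI, and was led by Tiam2, Stmn2, Dlx6os1 and Synpr. It also held 172 of the 498 Sp8 neuroblasts (34.5%). Cluster 14 took 9 and 11 cells and was led by Foxp1, Foxp2, Zfhx3, Gucy1a1 and Six3. Cluster 3 took 3 and 6 cells and was led by Adarb2, Cnr1 and Nr2f2.

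The other clusters held the cells that the label does not describe. Cluster 0, led by Neurod6, Neurod2, Sema3c and Eomes, took 5 cells of library 1 and 20 cells of library 2, of which 2 in all had a Dlx UMI. Clusters 9 and 10 were led by astroglial genes (Tnc, Sparcl1 and Aqp4; Gfap, Slco1c1 and Apoe) and took 27 cells, 14 of them with a Dlx UMI. The 8 cells in cluster 10 all came from library 1, and 5 of them were called as doublets. The remaining 6 cells were spread over clusters 8, 12, 15 and 17. The libraries therefore differed in what the rule let in: more cells with glutamatergic genes in library 2, and more with astroglial genes and doublet calls in library 1.

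**Figure D1:**
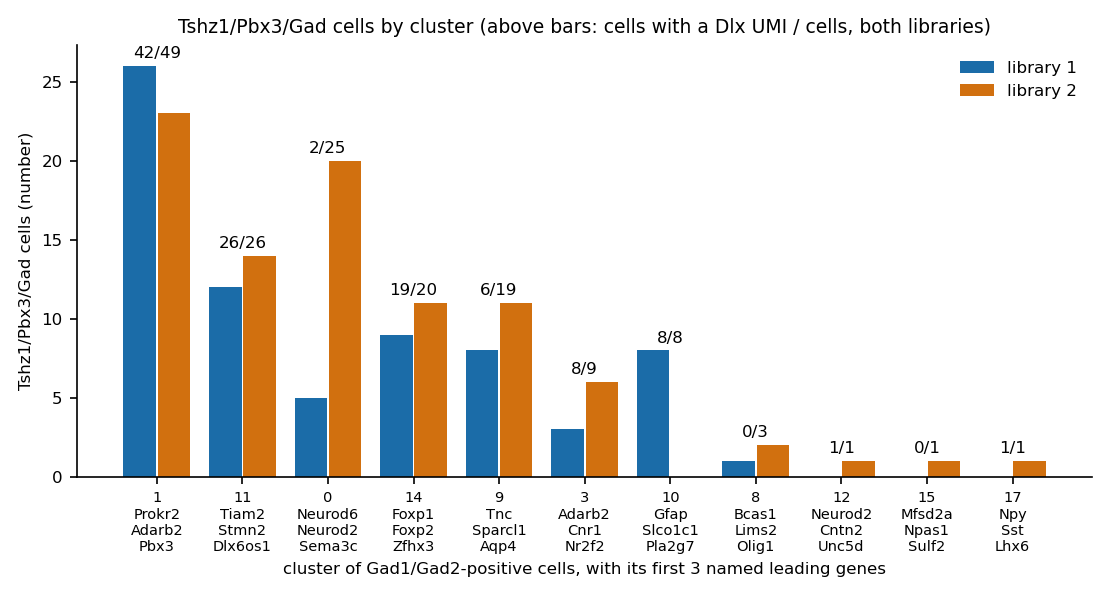
Number of Tshz1/Pbx3/Gad cells (vertical axis) in each cluster of GAD-positive cells (horizontal axis, with 3 leading genes per cluster) in library 1 and library 2; labels above the bars give cells with a Dlx UMI over all cells. Clusters 1, 11, 14 and 3 hold 104 of 162 cells, nearly all with Dlx, while cluster 0 holds 25 cells, of which 20 come from library 2.

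Within the class most subtype markers were found in a part of the cells. Foxp2 was found in 20 of 72 and 23 of 90 cells, Sp8 in 33 and 29, and both in 8 and 6. Prokr2 was found in 21 and 13 cells. In the OPC gate, at its greater depth, Foxp2 was found in 10.99% and 13.6% of cells, Sp8 in 2.03% and 2.48% and Prokr2 in 2.44% and 2.80%. Foxp1 was found in 8 of 72 cells (11.1%) in library 1 and 29 of 90 cells (32.2%) in library 2, against 23.5% and 25.5% in the OPC gate. Its share in library 1 was thus below that of the deeper OPC gate, and these shares are not at equal depth. Meis2, a TALE partner of Pbx proteins, was found in 70 and 82 cells, and after thinning to 2000 UMIs in 95.1% and 89.9% of cells against 48.6% and 50.2% in the OPC gate. In the cluster 14 cells, Foxp2 stood at 1330 and 562 CPM and Foxp1 at 60.4 and 1686 CPM, and Six3 at 0 and 337 CPM. The 9 cells of library 1 in this cluster were thus high in Foxp2 with little Foxp1, and the sum of the 11 cells of library 2 held both genes.

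The first question was how these cells differ from Sp8 neuroblasts. UMIs were added up over the cells of each class in each library, and these sums were tested with edgeR's quasi-likelihood test with the library as a block, called at an adjusted p under 0.05. Of 8178 genes tested, 1434 were called (17.5%), 643 higher (7.86%) and 791 lower (9.67%) in the Tshz1/Pbx3/Gad cells. Without scaling factors (TMM) the median log2 fold change of all genes moved from 0.00 to 0.11, and the share of called genes that were higher moved from 44.8% to 58.4%. The comparator of the rule may hold dividing cells and OPC transcripts: 122 of its 240 and 136 of its 258 cells had Mki67 or Top2a UMIs, and 47 and 54 had Pdgfra. The comparison was therefore repeated against the 99 and 102 Sp8 neuroblasts that pass the same exclusions as the Tshz1/Pbx3/Gad cells, which called 771 of 7894 genes (9.77%), 416 higher (5.27%) and 355 lower (4.5%). A further form, picked once the data were known, also asked for a Dlx UMI in every cell (58 and 55 against 98 and 94 cells) and called 472 of 6099 genes (7.74%), 278 higher (4.56%) and 194 lower (3.18%). Of the 1434 calls, 611 were called again under the same exclusions and 383 in the Dlx-restricted form. Results below are given in these forms in this order, as log2 fold change ± SE, positive where the Tshz1/Pbx3/Gad cells were higher.

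Transcription factors of the dorsal lateral ganglionic eminence and olfactory bulb lineage were more often lower than higher where they were called. By the rule, of the 17 tested, 4 were higher and 10 were lower. Their median was -1.17, where that of all genes was 0.00. Under the same exclusions 3 were higher and 8 lower of 17 (median -0.87). Among Dlx-positive cells, with the Dlx genes left out, 3 were higher and 5 lower of 11, and the median turned to 0.13. Dlx1 stood at 367 and 311 CPM against 691 and 725 CPM, with no overlap between the classes (-1.17 ± 0.14, edgeR adjusted p = 1.8e-09). Dlx2 (-1.31 ± 0.14) and Dlx5 (-1.21 ± 0.21) were lower as well. The Dlx values include the cells with no Dlx UMI, so they mix level per cell with the share of cells. Sp9, which acts beside Sp8 in striatal and olfactory bulb neurons, stood at 331 and 193 CPM against 654 and 661 CPM (-1.47 ± 0.32, edgeR adjusted p = 0.032). It was lower in both libraries, and stayed lower under the same exclusions (-1.59 ± 0.33) and among Dlx-positive cells (-0.94 ± 0.17).

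Zic1, a zinc-finger gene of septal and olfactory bulb precursors, showed the largest difference of this list at 12.2 and 13.5 CPM against 69.7 and 102 CPM (-2.85 ± 0.32, edgeR adjusted p = 1.1e-10). It was lower in the other forms too (-2.41 ± 0.44 and -2.36 ± 0.52), although the libraries of the stricter comparator lay apart at 21.5 and 106 CPM. Zic2 (-1.71 ± 0.36, -1.97 ± 0.41 and -1.49 ± 0.42) and Pax6 (-1.06 ± 0.17, -0.87 ± 0.18 and -0.66 ± 0.20) followed the same order. Etv1, an ETS factor of olfactory bulb granule cells, was not called at 255 and 197 CPM against 261 and 269.7 CPM (-0.35 ± 0.16, edgeR adjusted p = 0.12). Against this trend, Id2, an inhibitor of basic helix-loop-helix factors, was higher at 451 and 540.0 CPM against 156 and 214 CPM (1.32 ± 0.13, edgeR adjusted p = 2.0e-12), and so it was in the other forms (1.62 ± 0.16 and 1.22 ± 0.19). The nuclear receptor gene Nr2f1 was higher in the first 2 forms (0.69 ± 0.15 and 0.69 ± 0.18) and missed the threshold in the Dlx-restricted form (0.60 ± 0.20, edgeR adjusted p = 0.051), and its value by the rule turned to -0.59 when the gates were set on thinned cells.

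**Figure D2:**
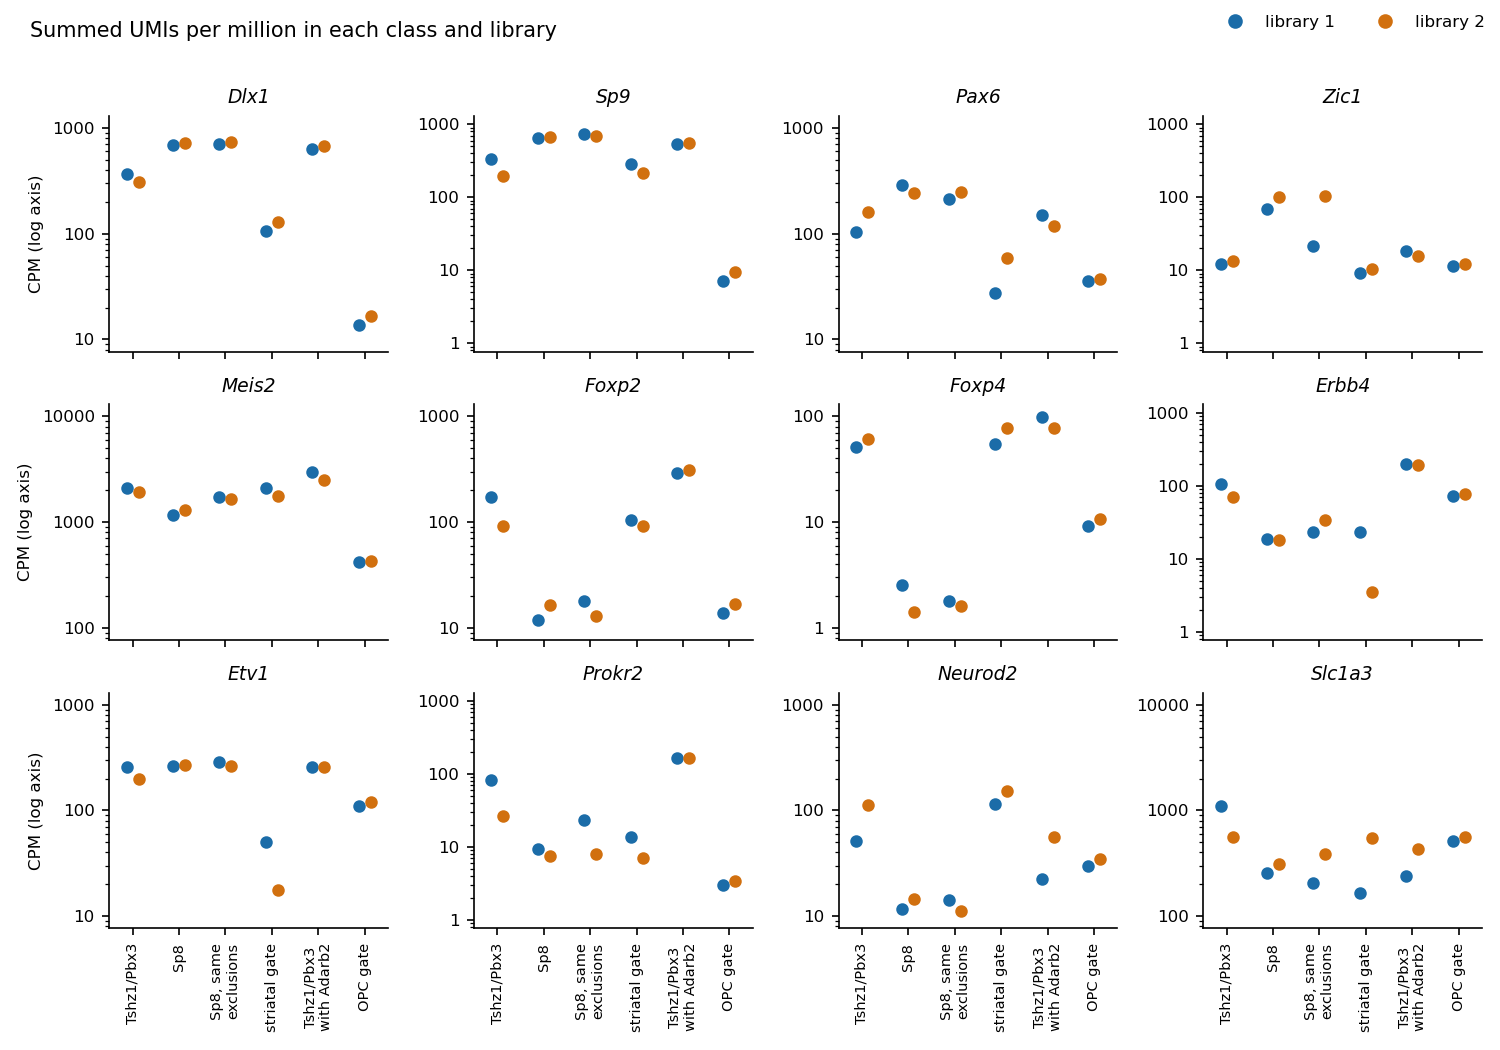
Level of 12 genes in CPM (vertical log axes) in 6 classes of cells (horizontal axes), 1 point per library and no error bars; a class with 0 UMIs in a library would have no point. Dlx1, Sp9 and Zic1 lie below both Sp8 comparators in the Tshz1/Pbx3 cells, Foxp2 and Foxp4 lie above them, and Neurod2 and Slc1a3 differ between libraries within the class.

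TALE and teashirt family genes other than those of the gate were higher where they were called, 4 of 8 by the rule (median 0.53), 2 of 8 under the same exclusions and 4 of 6 among Dlx-positive cells. Meis2 and Tshz2 also belong to the list of lineage factors above, and Meis2 to the intercalated list below. The counts of these lists are therefore not separate results. Meis1, a homeobox partner of Pbx proteins, stood at 63.7 and 53.8 CPM against 19.98 and 20.3 CPM (1.42 ± 0.28, edgeR adjusted p = 6.9e-05), and was higher in the other forms (1.36 ± 0.35 and 2.03 ± 0.38). Tshz2, a relative of Tshz1, was higher in the 3 forms (1.27 ± 0.30, 1.63 ± 0.40 and 1.57 ± 0.45). Meis2 stood at 2099 and 1933 CPM against 1169 and 1288 CPM and was called by the rule (0.61 ± 0.13) and among Dlx-positive cells (0.47 ± 0.13, edgeR adjusted p = 0.018), and missed the threshold under the same exclusions (0.16 ± 0.13, edgeR adjusted p = 0.51). Meis1 and Tshz2 thus differed from Sp8 neuroblasts in every form, and the more abundant Meis2 missed the threshold in 1 of them.

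Genes of the intercalated cells of the amygdala and of striatal projection neurons were higher. Of 10 intercalated genes, 6 could be tested, and 6 were higher by the rule (median 2.93), 4 of 6 under the same exclusions and 5 of 5 among Dlx-positive cells. Foxp2, a forkhead factor (chr6:14901349-15441977, plus strand, mm10), stood at 174 and 92.5 CPM against 11.8 and 16.5 CPM, an 8.27-fold difference in the fit (3.05 ± 0.35, edgeR adjusted p = 1.7e-05). Both libraries of the class lay above both of the comparator, and the difference was 2.96 ± 0.41 and 3.49 ± 0.36 in the other forms. After thinning to 2000 UMIs, Foxp2 was found in 16.4% and 13.9% of the Tshz1/Pbx3/Gad cells, 3.13% and 3.66% of Sp8 neuroblasts and 3.10% and 3.67% of the OPC gate. Foxp4, its relative (chr17:47867133-47924645, minus strand), stood at 51.4 and 60.6 CPM against 2.56 and 1.42 CPM (4.65 ± 0.42, edgeR adjusted p = 1.0e-13). The stricter comparator held 2 Foxp4 UMIs in all, against 57, a ratio of 33.6-fold with a counting interval of 8.90 to 285.

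Erbb4, a receptor of neuregulins that guides migrating interneurons (chr1:68032186-69108059, minus strand), stood at 105 and 70.7 CPM against 18.4 and 18 CPM (2.12 ± 0.26, edgeR adjusted p = 4.7e-09), and was higher in the other forms (1.47 ± 0.31 and 1.80 ± 0.31). Its level in the OPC gate was 72.5 and 77.8 CPM, close to that of the class. Cdh8, a cadherin, stood at 7.35 and 43.7 CPM against 2.05 and 0.472 CPM (4.24 ± 0.69, edgeR adjusted p = 1.6e-05), most of it from library 2, and was called in the other forms (4.63 ± 0.97 and 3.83 ± 1.16). Those calls rested on 29 Cdh8 UMIs against 1 and 10 against 1. Their counting intervals ran from 5.68 to 1398-fold and from 2.63 to 803-fold. Of the striatal genes, 7 of 10 were higher by the rule, 4 of 10 under the same exclusions and 5 of 8 among Dlx-positive cells, and none was lower. Their medians were 2.42, 1.92 and 3.27 (2.29 with genes at 0 UMIs in one class set to their bound). Six3, a homeobox gene of striatal neurons, stood at 12.2 and 32.0 CPM against 2.56 and 1.42 CPM (3.44 ± 0.59, edgeR adjusted p = 1.1e-05). Pde10a, the phosphodiesterase of striatal neurons, stood at 115 and 60.6 CPM against 40.0 and 31.7 CPM (1.14 ± 0.23, 1.33 ± 0.29 and 1.48 ± 0.33). Rxrg, a retinoid receptor, had 17 UMIs against 0 in the stricter comparator. That is at least 6.69-fold higher against a floor of 3 counts over the group. Its log2 fold change by the rule turned to -3.97 ± 4.80 when 2 UMIs of Tshz1 and of Pbx3 were asked for. That value was smaller than its SE and was not called. Drd1, Ppp1r1b, Adora2a and Isl1, of the striatal list, were at 0 UMIs in the class. Drd1, Penk and Tac1 are in the intercalated list too, of which Drd1, Oprm1, Adra2a and Tac1 did not pass the low-count filter.

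Penk, which encodes enkephalin, was called by the rule at 22.0 and 1.68 CPM against 1.02 and 1.42 CPM (2.82 ± 1.01, edgeR adjusted p = 0.044). This call rested on library 1: without the cells called as doublets the difference was -0.50 ± 1.79, turned in direction and not called. Foxp2, Foxp4, Six3, Cdh8 and Rxrg are leading genes of cluster 14, and Six3, Cdh8 and Rxrg were higher in library 2, where the class held 225 CPM of Foxp1 against 36.7 CPM in library 1. In the class cells of library 2, Six3 stood at 337 CPM in cluster 14, 13.1 CPM in cluster 11 and 0 CPM in clusters 0, 1, 3 and 9. In library 1 it stood at 64.5 CPM in cluster 10, where 5 of 8 cells were called as doublets. Clusters 0, 1, 3, 9, 11 and 14 held 0 CPM of it in library 1.

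**Figure D3:**
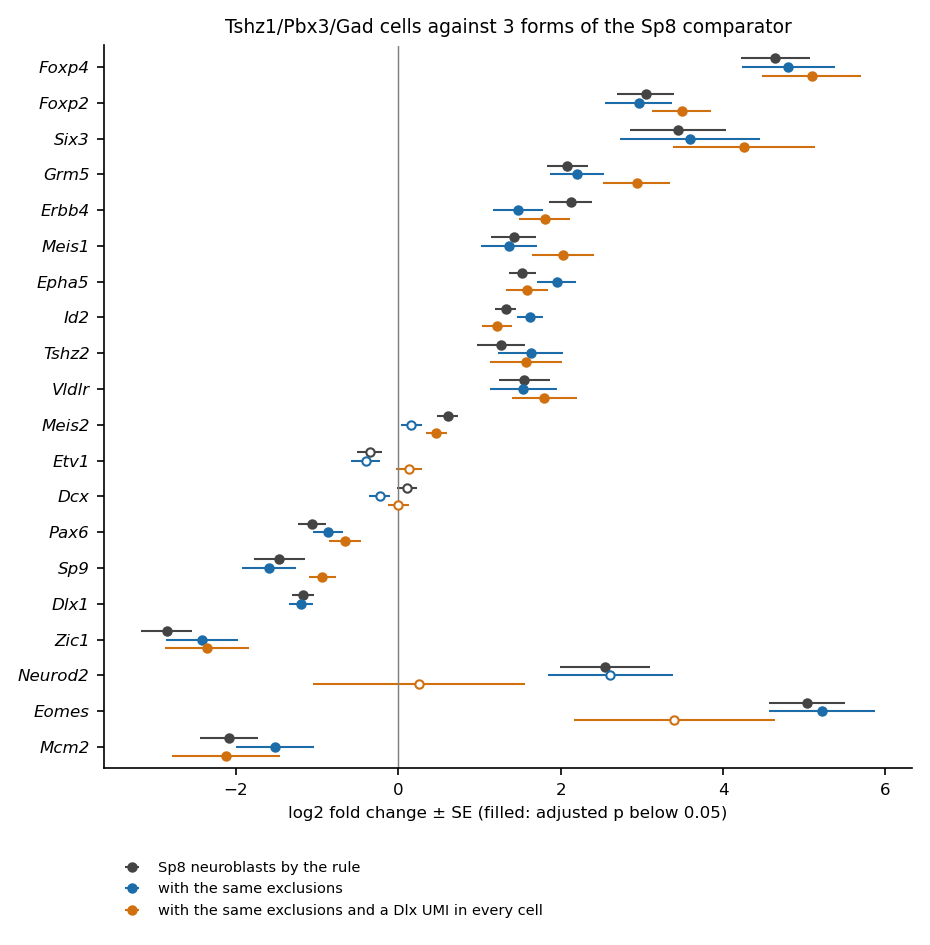
Log2 fold change ± SE (horizontal axis) of 20 genes (vertical axis) in Tshz1/Pbx3/Gad cells against the Sp8 neuroblasts of the rule, those with the same exclusions, and those with the same exclusions and a Dlx UMI in every cell; filled points have an adjusted p below 0.05, and Dlx1 has no point in the last form because Dlx chose its cells. Foxp4, Foxp2, Grm5, Erbb4 and Id2 lie right of 0 in each form and Zic1 and Sp9 left of 0, Eomes and Neurod2 lose their call, and Foxp4 and Six3 rest on 2 comparator UMIs each in the stricter forms.

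Receptors, ligands and adhesion molecules of neuronal migration and axon guidance were higher in 19 of 38 tested and lower in 1 (median 0.86). The counts were 15 higher and 1 lower of 38 under the same exclusions, and 7 higher and 0 lower of 31 among Dlx-positive cells. Nrp2, a semaphorin co-receptor, stood at 19.6 and 25.2 CPM against 5.12 and 3.78 CPM (2.25 ± 0.51, edgeR adjusted p = 5.8e-04) and was higher among Dlx-positive cells (2.30 ± 0.72). Ephb1, an ephrin receptor, was higher in the 3 forms (1.68 ± 0.36, 2.53 ± 0.53 and 2.46 ± 0.62). Plxna4, a semaphorin receptor subunit, was higher in the 3 forms (1.75 ± 0.22, 1.10 ± 0.24 and 1.25 ± 0.28). In contrast, the netrin receptor gene Unc5d (3.50 ± 0.36, then 2.95 ± 0.44) and the semaphorin gene Sema3c (2.92 ± 0.37, then 2.95 ± 0.51) had the largest folds of this list by the rule. Both are also leading genes of clusters 12 and 0, whose leading genes include Neurod2 and Neurod6. Unc5d stood at -0.29 ± 1.01, not called, under the same exclusions with cells carrying a glutamatergic or Aqp4 UMI left out as well. Ncam1, the neural cell adhesion molecule, was the one lower member at 705 and 648 CPM against 826 and 897 CPM (-0.45 ± 0.13, edgeR adjusted p = 0.0059), and was not called among Dlx-positive cells (-0.26 ± 0.12). Prokr2 stood at 83.3 and 26.9 CPM against 9.22 and 7.56 CPM and was not called in any form (2.48 ± 0.70, edgeR adjusted p = 0.058 by the rule; 1.63 ± 0.92 and 2.22 ± 0.69 otherwise). Its 2 libraries in the class differed more from each other than did those of the comparator.

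Genes of neuronal signalling were higher in part, and none of these lists had a lower member. Among glutamate receptors 5 of 14 were higher (median 1.00), 4 of 13 under the same exclusions and 1 of 10 among Dlx-positive cells. The one that stayed was Grm5, a metabotropic receptor, at 108 and 72.3 CPM against 17.4 and 20.8 CPM (2.08 ± 0.25, 2.20 ± 0.33 and 2.93 ± 0.41). Voltage-gated channel genes were higher in 8 of 25, 4 of 23 and 3 of 16, among them the calcium channel subunit gene Cacna2d3 (1.52 ± 0.39, 2.16 ± 0.54 and 2.69 ± 0.57). Synaptic vesicle genes were higher in 8 of 23, 5 of 23 and 4 of 21. The synaptotagmin genes Syt1 (2.04 ± 0.55, 1.62 ± 0.40 and 2.13 ± 0.41) and Syt5 (2.26 ± 0.41, 2.12 ± 0.51 and 2.64 ± 0.58), calcium sensors of vesicle release, were among them. For GABA handling, 2 of 14 were higher by the rule, among them the receptor subunit Gabbr1 (0.62 ± 0.17), and 0 of 14 under the same exclusions and 1 of 11 among Dlx-positive cells. Over all genes the share called higher was 7.86%, 5.27% and 4.56% in the 3 forms. The counts for GABA handling, and the 1 of 10 glutamate receptors among Dlx-positive cells, are too small to set apart from these shares. These lists are also active in glutamatergic neurons and in astroglia, whose summed markers were higher in the class, and their part in the signalling genes was not tested.

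Cytoskeletal and regulatory genes of immature neurons were lower where they were called. Of 21 tested, 6 were lower by the rule, 12 under the same exclusions and 8 among Dlx-positive cells, and 0 were higher in any form. Tubb3, the neuronal tubulin, stood at 1663 and 1883 CPM against 3641 and 3341 CPM in the stricter comparator (-1.07 ± 0.12, edgeR adjusted p = 1.1e-08), and the difference was -0.74 ± 0.11 among Dlx-positive cells. Cd24a, a surface protein of neuroblasts, was lower in the 3 forms (-0.60 ± 0.13, -0.94 ± 0.13 and -0.75 ± 0.12). Dcx, the microtubule protein that defines migrating neuroblasts, was not called (0.10 ± 0.12, -0.23 ± 0.13 and 0.000 ± 0.13). The rule excluded Mki67 and Top2a in the class but not in the comparator, and by the rule mitosis genes were lower in 18 of 18 and S phase genes in 15 of 16. With the same exclusions in both classes, S phase genes were still lower in 7 of 14 and, among Dlx-positive cells, in 6 of 12. Mcm2, a subunit of the replication helicase, was -2.12 ± 0.66 there (edgeR adjusted p = 0.033). Vim, an intermediate filament of progenitors, was lower in each form (-1.16 ± 0.21, -1.16 ± 0.20 and -1.05 ± 0.16), whereas the growth factor receptor gene Egfr was higher (0.93 ± 0.33, 1.73 ± 0.46 and 2.16 ± 0.66).

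Few markers of mature olfactory bulb subtypes were frequent enough to test. Of 14, 7 could be tested, 1 was higher and 2 lower (median -1.28; -0.57 with genes at 0 UMIs in one class set to their bound). Th and Scgn, which define dopaminergic and secretagogin-positive cells, were at 0 UMIs in the class. Synpr, a synaptic vesicle protein, was lower in the 3 forms (-1.28 ± 0.35, -2.00 ± 0.36 and -1.31 ± 0.35). Calb2, which encodes calretinin, was lower by the rule at 29.4 and 10.1 CPM against 36.4 and 67.6 CPM (-1.64 ± 0.37, edgeR adjusted p = 1.0e-03) and not called in the others. Camk4, a calcium-dependent kinase of granule cells, was higher by the rule (3.49 ± 0.81, edgeR adjusted p = 9.3e-04), at 31.8 and 5.05 CPM against 1.02 and 1.42 CPM, and missed the threshold under the same exclusions (3.03 ± 1.02, edgeR adjusted p = 0.053). Markers of caudal eminence interneurons were higher in 1 and lower in 3 of 8. Prox1, a homeobox gene of that lineage, was lower in each form (-1.93 ± 0.37, -2.00 ± 0.42 and -1.82 ± 0.48), and so was Zbtb16 (-2.17 ± 0.56, -2.89 ± 0.56 and -2.49 ± 0.62). Cells with Adarb2, a marker of the same lineage, had been excluded from both classes. Medial eminence markers other than Lhx6 were higher in 1 and lower in 2 of 8.

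Markers of other cell types were higher than in Sp8 neuroblasts too. Glutamatergic genes were higher in 7 of 8 by the rule, 6 of 8 under the same exclusions and 1 of 4 among Dlx-positive cells. Eomes, a T-box factor of glutamatergic precursors, stood at 26.9 and 119 CPM against 2.05 and 1.89 CPM (5.04 ± 0.47, edgeR adjusted p = 3.2e-13) and lost its call among Dlx-positive cells (3.40 ± 1.24, edgeR adjusted p = 0.085). Astroglial genes were higher in 2 of 9, 0 of 9 and 3 of 8, the last being Aldh1l1 (1.88 ± 0.37), Slc4a4 (1.73 ± 0.37) and Slc1a2 (1.36 ± 0.26). Only 4 glutamatergic genes could be tested among Dlx-positive cells, so the smaller number of calls there does not show that the difference went away. The astroglial calls there were not made under the same exclusions, where 0 of 9 were called. Early response genes, which respond quickly to stimulation, were higher in 5, 5 and 3 of 12 and lower in 0, 1 and 0. Fosb led the higher ones (1.87 ± 0.18, 2.14 ± 0.22 and 2.89 ± 0.31). The part of these transcripts in the other differences was not tested beyond the forms given.

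Outside the lists, the largest differences changed with the form of the comparison. By the rule, the somatostatin receptor gene Sstr2 (3.88 ± 0.55), nitric oxide synthase gene Nos1 (3.76 ± 0.61), Serpinf1 (3.49 ± 0.55) and the BMP antagonist gene Nog (3.28 ± 0.51) were among the highest. Under the same exclusions they were higher too (3.57 ± 0.70, 2.62 ± 0.68, 3.95 ± 0.77 and 2.94 ± 0.63 in that order), where Serpinf1 had 44 UMIs against 3. Among Dlx-positive cells Nos1 was not called (0.41 ± 1.29), and Sstr2, Serpinf1 and Nog did not pass the low-count filter. Sstr2 is a leading gene of cluster 0, and Nos1 of cluster 17. The lowest were mitotic genes such as Hmmr and Kif2c, with 0 UMIs in the class, from which cells with Mki67 or Top2a had been left out. Among Dlx-positive cells the highest included Spats2l (4.42 ± 1.10), the guanylate cyclase subunit gene Gucy1a1 (3.66 ± 0.57), the homeobox gene Zfhx3 (3.01 ± 0.45) and the growth factor receptor gene Fgfr2 (2.94 ± 0.78). Spats2l had 15 UMIs there against 1 in the comparator, with a counting interval of 4.27 to 1169-fold. Gucy1a1 and Zfhx3 are leading genes of cluster 14. The lowest there included Lgals1 (-2.63 ± 0.54), the zinc-finger gene Insm1 (-2.58 ± 0.30), the cell cycle inhibitor gene Cdkn1c (-2.09 ± 0.50) and Parm1 (-2.50 ± 0.43).

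A second comparison asked how the class differs from cells with striatal markers, since Foxp2 and Six3, higher than in Sp8 neuroblasts, are active there too. The striatal gate, 37 and 36 cells, had Bcl11b, Foxp1 and a GAD transcript, passed the same exclusions, had no Sp8 UMI and lacked joint Tshz1 and Pbx3. Of 8176 genes, 257 were called (3.14%), 92 higher (1.13%) and 165 lower (2.02%) in the Tshz1/Pbx3/Gad cells. With a Dlx UMI in every cell (23 and 22 striatal cells), picked once the data were known, 363 of 6227 were called (5.83%), 166 higher (2.67%) and 197 lower (3.16%). The striatal gate was itself mixed: 62.2% and 61.1% of its cells had a Dlx UMI, and its glutamatergic markers summed to 482 and 743 CPM and its astroglial ones to 1167 and 3099.7 CPM.

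Here the olfactory bulb lineage factors lay on the other side. They were higher in 6 of 17 and lower in 0 (median 0.62), and among Dlx-positive cells higher in 5 and lower in 1 of 12. The striatal gate barred Sp8, an olfactory bulb factor, whereas 33 of 72 and 29 of 90 cells of the class carried it. Etv1 was higher in those cells (below), and the Sp8-negative cells alone were not set against this gate. Etv1 stood at 255 and 197 CPM against 50.5 and 17.5 CPM, a 6.68-fold difference (2.74 ± 0.32, edgeR adjusted p = 1.2e-07; 3.32 ± 0.35 among Dlx-positive cells). It was higher in both libraries, and Pax6 was higher as well (1.52 ± 0.32; 2.70 ± 0.47). Pax6 thus stood between the striatal gate and Sp8 neuroblasts in these cells, with both differences called, while Etv1 differed from the striatal gate and did not pass the test against Sp8 neuroblasts. Erbb4 was higher than in the striatal gate at 105 and 70.7 CPM against 23.0 and 3.50 CPM (2.76 ± 0.49, edgeR adjusted p = 1.5e-04; 2.75 ± 0.54).

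Striatal genes were lower in 7 of 10 (median -2.46) and in 6 of 8 among Dlx-positive cells, and 0 were higher. Six3 stood at 12.2 and 32.0 CPM against 225 and 116 CPM (-2.81 ± 0.37, edgeR adjusted p = 2.9e-07; -2.69 ± 0.40). The retinoid receptor genes Rarb (-2.83 ± 0.64; -2.85 ± 0.74) and Rxrg (-2.71 ± 0.49; -3.00 ± 0.56) were lower, among the 3 called of 5 retinoid genes. Foxp2 (0.33 ± 0.38, edgeR adjusted p = 0.78), Foxp4 (-0.31 ± 0.34) and Meis2 (0.008 ± 0.13) were not called, which does not show that they were equal. Summed over the class, Six3 thus stood above Sp8 neuroblasts and below the striatal gate, with both differences called. This sum mixed clusters that held Six3 with clusters at 0 CPM, so it does not give the level of a typical cell.

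Immature neuron genes were split in this comparison, with 1 higher and 6 lower of 21, and 2 higher and 7 lower among Dlx-positive cells. Stmn2, a microtubule regulator, was higher (0.49 ± 0.14; 0.72 ± 0.14), and Gap43, a growth cone protein, was lower at 162 and 168 CPM against 629 and 455 CPM (-1.76 ± 0.19, edgeR adjusted p = 2.4e-07; -1.84 ± 0.19). Nnat, which encodes neuronatin, was lower as well (-1.05 ± 0.12; -1.13 ± 0.11). Guidance genes were higher in 4 and lower in 2 of 38. The lower ones were the slit receptor gene Robo1 (-1.44 ± 0.34; -2.62 ± 0.52) and the ephrin receptor gene Epha4 (-1.34 ± 0.21; -1.90 ± 0.26). Outside the lists, the cyclic nucleotide phosphodiesterase gene Pde2a (-4.19 ± 0.82) and the calcium sensor gene Caln1 (-3.36 ± 0.65) were among the lowest, and Enpp2 (4.73 ± 0.83), which encodes autotaxin, and Serpinf1 (3.37 ± 0.93) among the highest. Enpp2 had 59 UMIs against 1, Serpinf1 44 against 2 and Pde2a 3 against 28, so these folds rest on few UMIs on one side.

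The third comparison divided the class by Sp8 itself. Sp8 was found in 33 of 72 cells (45.8%) and 29 of 90 cells (32.2%), at 157 and 90.8 CPM over the class, and 33 and 26 of these cells had a Dlx UMI. The Sp8-positive cells differed from the Sp8-negative ones in 234 of 5906 genes (3.96%), 138 higher (2.34%) and 96 lower (1.63%). Without scaling factors the share of called genes that were higher moved from 59.0% to 48.8%. Among Dlx-positive cells, picked once the data were known, 85 of 4240 genes were called (2%), 45 higher (1.06%) and 40 lower (0.943%). Because Sp8-negative cells include those with glutamatergic and astroglial genes, the 2 forms are given side by side.

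Neuroblast genes were higher in the Sp8-positive cells. Of 21 immature neuron genes, 14 were higher and 0 lower (median 0.70), and 6 higher and 0 lower among Dlx-positive cells (median 0.47). Stmn2 stood at 2350.2 and 2673 CPM against 842 and 734 CPM (1.72 ± 0.16, edgeR adjusted p = 1.1e-09; 0.95 ± 0.16 among Dlx-positive cells). Cd24a (0.84 ± 0.17; 0.90 ± 0.18) and Dpysl3 (1.09 ± 0.16; 0.81 ± 0.17), a mediator of growth cone collapse, went the same way. Of the lineage factors, Dlx1 (1.85 ± 0.19), Dlx2 (2.04 ± 0.22) and Dlx5 (2.58 ± 0.30) were higher over all cells. Etv1 (1.56 ± 0.23; 0.93 ± 0.24) was higher in both forms. Sp8-positive cells of the class were also higher in Tiam2, a guanine exchange factor for Rac, at 294 and 424 CPM against 80.8 and 37.1 CPM (2.79 ± 0.29, edgeR adjusted p = 1.9e-08; 2.01 ± 0.29). St18, a zinc-finger gene, had 18 UMIs against 2, a ratio of 17.9-fold with a counting interval of 4.28 to 159.

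Lower in the Sp8-positive cells were Id2, at 248 and 178 CPM against 599.5 and 676 CPM (-1.52 ± 0.20, edgeR adjusted p = 1.8e-06; -0.90 ± 0.24 among Dlx-positive cells), Grm5 (-2.11 ± 0.52; -2.30 ± 0.56) and Gucy1a1 (-3.83 ± 0.69; -4.63 ± 1.05). Gucy1a1 had 2 UMIs in the Sp8-positive cells of each form, against 58 and 49. The early response genes Fosb (-1.85 ± 0.33; -1.90 ± 0.39) and Egr1 (-1.77 ± 0.20; -1.51 ± 0.27) were lower too. Eomes (-3.00 ± 0.76) and Neurod6 (-1.72 ± 0.44) were lower in the form that includes cells without Dlx, where glutamatergic genes were lower in 2 of 7. Foxp2 was not called (-0.55 ± 0.48, edgeR adjusted p = 0.64; -1.38 ± 0.42), nor was Meis2 (0.41 ± 0.15; 0.060 ± 0.15). Six3 had 1 UMI in the Sp8-positive cells and 23 in the Sp8-negative ones in both forms. It was 11.6-fold lower over all cells, with a counting interval of 1.88 to 477, and not called there. Among Dlx-positive cells it was 23.9-fold lower (3.88 to 985). The class held Six3 mostly in cluster 14 of library 2 and cluster 10 of library 1. These intervals pool the libraries and do not cover the spread between them. With its Sp8-positive cells left out, the class differed from Sp8 neuroblasts in 1441 genes, against 1434 with them. Of those 1434, 1361 could be tested in both and 1174 were called again in the same direction.

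**Figure D4:**
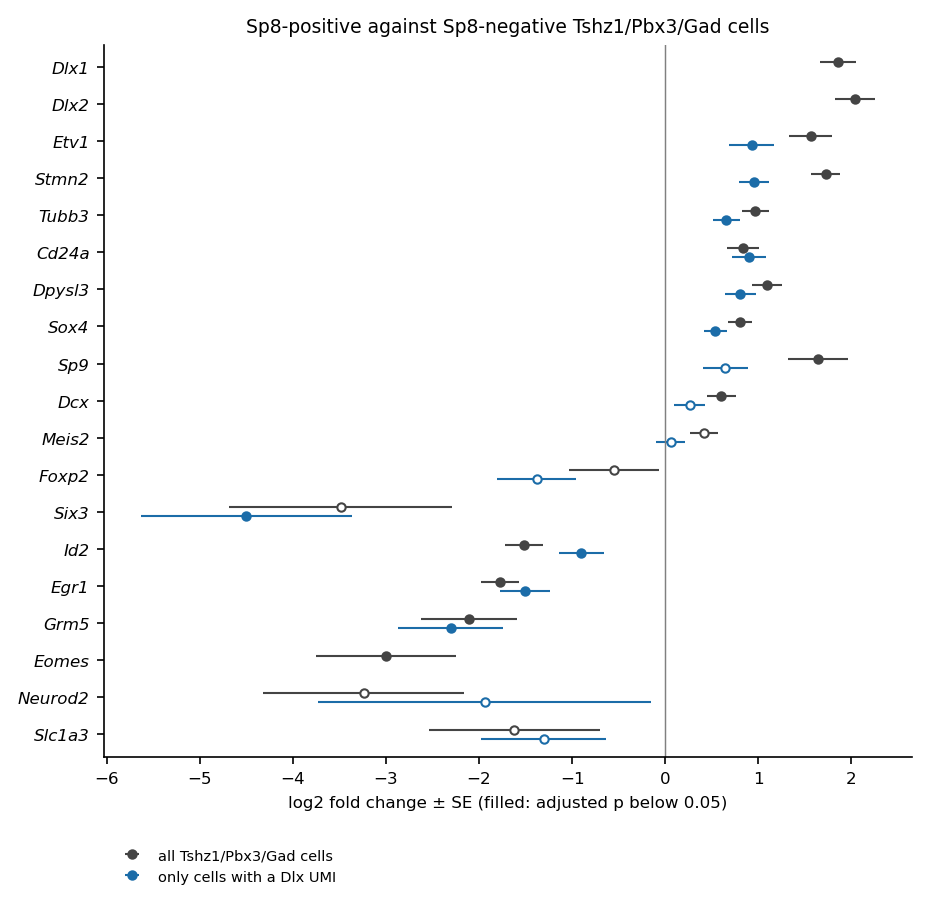
Log2 fold change ± SE (horizontal axis) of 19 genes (vertical axis) between Sp8-positive and Sp8-negative Tshz1/Pbx3/Gad cells, over all cells and over those with a Dlx UMI; filled points have an adjusted p below 0.05, and Dlx1 and Dlx2 have no point in the second form because Dlx chose its cells. Etv1, Stmn2 and Cd24a lie right of 0 and Id2, Egr1 and Grm5 left of 0 in both forms.

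A last comparison, added once the data were known, set the 109 and 127 cells that failed the rule on Adarb2 alone against the class. Adarb2 encodes an RNA-binding protein of the ADAR family. Of 7817 genes, 360 were called (4.61%), 147 higher (1.88%) and 213 lower (2.72%) in the Adarb2-positive cells. Among Dlx-positive cells, 100 and 118 against 58 and 55, 85 of 6271 were called (1.36%), 26 higher (0.415%) and 59 lower (0.941%). The Adarb2-positive cells had a Dlx UMI in 91.7% and 92.9% of cells, and their glutamatergic markers summed to 186 and 353 CPM and their astroglial ones to 1790.4 and 2332 CPM.

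Intercalated genes were higher in 3 of 6 over all cells and 1 of 5 among Dlx-positive cells. Lineage factors were higher in 5 and lower in 1 of 17 over all cells, and 0 of 12 were called among Dlx-positive cells. Foxp2 stood at 292 and 309.5 CPM in the Adarb2-positive cells and 174 and 92.5 CPM in the class (1.23 ± 0.20, edgeR adjusted p = 3.0e-05), and was not called among Dlx-positive cells (0.62 ± 0.20, edgeR adjusted p = 0.085). Caudal eminence markers were higher in 3 of 8 and 2 of 5, namely Prox1 (1.87 ± 0.44; 1.75 ± 0.50) and the cannabinoid receptor gene Cnr1 (1.68 ± 0.36; 1.92 ± 0.44) in both forms and Zbtb16 (2.18 ± 0.66) over all cells. Erbb4 stood at 196 and 195 CPM against 105 and 70.7 CPM (1.18 ± 0.22, edgeR adjusted p = 2.2e-04; 0.85 ± 0.22), and Prokr2 at 163 and 166 CPM against 83.3 and 26.9 CPM, called among Dlx-positive cells (1.18 ± 0.29, edgeR adjusted p = 0.023). The glutamate receptor subunit gene Grin2b (1.47 ± 0.28; 1.36 ± 0.32), the GABA receptor subunit gene Gabra2 (1.85 ± 0.43; 1.74 ± 0.50) and the Wnt secretion gene Wls (2.08 ± 0.36; 1.59 ± 0.39) were higher in both forms.

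On the other side, Grm5 was lower in the Adarb2-positive cells (-1.79 ± 0.31, edgeR adjusted p = 8.3e-05; -2.28 ± 0.39 among Dlx-positive cells), as was Egr1 (-1.29 ± 0.15; -1.04 ± 0.17). Striatal genes were called on both sides: 1 was higher and 2 were lower of 10 over all cells, and 0 were higher and 1 lower of 8 among Dlx-positive cells. Zfp503, a zinc-finger gene of striatal neurons, had 0 UMIs in the Adarb2-positive cells against 15 in the class, at least 6.26-fold lower against a floor of 3 counts over the group, and at least 8.97-fold lower among Dlx-positive cells. Early response genes were lower in 6 of 12 over all cells and in 1 of 11 among Dlx-positive cells. Immature neuron genes were higher in 7 and 2 of 21, with Dcx in both (0.72 ± 0.13; 0.52 ± 0.13).

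Some of these genes share exons with a transcript on the other strand in the annotation: Dlx1, Sp9, Zic1, Meis1, Rarb, Six3, Cdh8, Prox1, Plxna4, Grin2b, Eomes, Enpp2 and Tiam2, while Aldh1l1 overlaps a gene on its own strand. The kit keeps the strand, but the sources used here do not say how counting used it, so reads of these partners may not be told apart.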

How the data were processed

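Per the file headers, the deposited matrices hold raw UMI counts for 32285 genes, from Cell Ranger 6.0.2, limited to barcodes called as cells. The submitters' processing notes list mm10, R 4.1.0 and Seurat 4.1.0 without saying what each was used for, and the sources used here do not give the annotation release. Quality filters removed 441 and 657 barcodes for too few genes (minimum 500) and a further 2189 and 2891 for mitochondrial UMIs above 10%. Scrublet in scanpy 1.11.5, at an expected rate of 10%, called 829 and 808 kept barcodes as doublets; they were kept, with an alternative that left them out. The members and the gene lists were chosen with earlier results of these data known.

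Sums of UMIs per class and library went into edgeR 4.0.16 (R 4.3.3): quasi-likelihood test, robust fit, TMM, filterByExpr, and Benjamini-Hochberg adjustment over all genes at 0.05. Each fit held 10 sums of 5 classes (12 sums for the division by Sp8), with the library as a block because every class of a library comes from 1 sort and 1 capture. That left 4 residual degrees of freedom, and 5 for the division by Sp8. Gate genes were left out of counts of called genes, and Dlx genes too where Dlx chose the cells. Each SE was obtained from the log2 fold change and the root of its F value. On simulated counts with 200 changed genes, 77% of 2-fold and 99% of 4-fold changes were recovered for the comparison with Sp8 neuroblasts (7687 genes), 64% and 88% for that with the striatal gate (7735 genes), and 47% and 90% for the division by Sp8 (5283 genes). Changed genes were drawn from those with at least 5 expected UMIs in the smallest sum. Every gene was given the common spread, with no difference between libraries. These rates do not cover genes with fewer UMIs or a wider spread.

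Named genes were, per comparison, up to 3 in each direction from each list with the largest change among those called with the same sign in both libraries, and outside the lists the 8 largest in each direction with at least 20 CPM in the higher class, without gate, mitochondrial, ribosomal protein, Gm and Rik genes. Genes of the gates and of the lineage, TALE, olfactory subtype, intercalated and striatal lists could be given by level in any case, and a gene picked in one form of a comparison could be given in its other forms. Plxna4, Dcx and Prokr2 were named against Sp8 neuroblasts after their values had been seen.

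Intervals of shares are exact (Clopper-Pearson, 95%), and shares of cells with a marker were also taken after thinning to 2000 UMIs per cell. GAD-positive cells were clustered on 2000 variable genes with 30 principal components, 15 neighbours and Leiden resolution 1. Positions and overlaps come from GENCODE vM21 (GRCm38), which matched 32158 of the genes. Alternatives were DESeq2 1.42.0, no TMM, no low-count filter, no block, each library left out, and stricter or thinned cells and gates. Some genes of the lists are counted and not reported here by name. Python 3.11.15, numpy 2.4.6, scipy 1.17.1 and matplotlib 3.10.9 were used.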

Additional observations from a re-analysis of the deposited data

How the results depend on the processing

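The number of called genes depended on the tool, the depth and the choice of cells. Against Sp8 neuroblasts, 1434 genes became 673 with DESeq2, 383 with cells thinned to 2000 UMIs, 771 with the same exclusions in the comparator, 682 with at least 2 UMIs of Tshz1 and of Pbx3, and 646 with gates set on thinned cells. In forms added once the data were known, it became 815 with the same exclusions and doublets left out, 501 with the same exclusions and cells free of glutamatergic and Aqp4 UMIs, and 472 with the same exclusions and a Dlx UMI in every cell. Against the striatal gate, 257 became 120 with DESeq2, 78 with thinned cells and 132 with at least 2 UMIs. For the division by Sp8, 234 became 426 without doublets, 66 with thinned cells and 85 with a Dlx UMI. For the division by Adarb2, 360 became 77 with DESeq2 and 85 with a Dlx UMI. Counts in the other settings lay within 1.5 times: 1276 to 2083 in 9 settings against Sp8 neuroblasts (the highest with any Adarb2, 1654 without doublets), 198 to 363 in 8 against the striatal gate, 167 to 334 in 6 for the division by Sp8, and 312 in 1 for that by Adarb2. Fewer UMIs or cells enter the thinned and restricted forms; the cause of the other shifts was not tested.

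Single genes turned direction against Sp8 neuroblasts as follows. Penk went to -0.50 ± 1.79 without doublets and to -1.65 ± 1.69 with the same exclusions and no doublets. Unc5d went to -0.29 ± 1.01 with the same exclusions and cells free of glutamatergic and Aqp4 UMIs. Rarb went to -2.08 ± 5.80 and Rxrg to -3.97 ± 4.80 with at least 2 UMIs of Tshz1 and of Pbx3. With gates on thinned cells Rarb went to -1.88 ± 3.88, Nr2f1 to -0.59 ± 0.26 and Btg2 to -0.0848 ± 0.385. Calb2 went to 0.38 ± 0.78 against the striatal gate with a Dlx UMI. None of these values was called, and all but that of Nr2f1 were smaller than their SE.

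The share of the class fell to 0.239% with at least 2 UMIs and 0.360% with gates on thinned cells, and was 0.641% to 0.821% with each library alone. Without the block for the library, a pairing that comes from the design, the 4 comparisons called 1308, 205, 219 and 312 genes. With 1 library left out no test is possible, and fold changes are values only. Without library 1 and without library 2, the value moved by more than the spread between libraries in 24 and 34 of 74 named genes against Sp8 neuroblasts, 13 and 12 of 42 against the striatal gate, 16 and 14 of 37 for the division by Sp8, and 17 and 22 of 55 for that by Adarb2. None changed direction, which the naming rule fixes, since it asks for the same sign in both libraries. The 72 and 90 cells and single UMIs of the gate genes limit every value here.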
